A study of Mus musculus with 14 samples.

Results

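Tumours of mice that received tumour-killing T cells together with a control antibody were compared with tumours of mice that received the same T cells and no antibody. The comparison rests on 6 of the 14 arrays of the study, chosen by their labels: 3 arrays of the IgG with CTL arm and 3 of the CTL arm, 1 for each of days 3, 5 and 7 after transfer. All mice were C57BL/6 and carried tumours grown from B16F10 cells, a pigmented mouse melanoma line, and both arms were given in vitro activated, gp100-specific CD90.1+ cytotoxic T lymphocytes (CTLs) on day 0. In the IgG with CTL arm the mice also received rat IgG into the peritoneum on days 0 and 2, while the CTL arm had no antibody. Untreated tumours of the same days had neither cells nor antibody, and a further arm had CTLs with an antibody against interferon gamma (IFN-γ). Each array carried pooled RNA, of 3 tumours with IgG and of 4 tumours in the CTL and untreated arms.

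A control IgG is given so that the protein load and the constant part of a blocking antibody are present without its target. That constant part can bind Fc receptors on macrophages, neutrophils and natural killer cells and can recruit complement component C1q, so a control antibody is not inert by definition. Activated CTLs recognise the gp100 peptide, made from the melanosome protein Pmel, and release IFN-γ, which induces antigen presentation and chemokine genes in tumour and stroma.

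No combination of arm and day was replicated, so each difference below is a mean of 3 same-day differences. Its error is the spread that remained after arm and day over the 12 arrays of all 4 arms. It is not the spread of those 3 differences alone. Pool size and position on the slide were the same for an arm on every day, so antibody, pool size and position cannot be told apart. The number of arrays limits the precision. On these arrays between 48.9% and 56.5% of spots were well above background, and the lowest share was that of the CTL array of day 5. The tissue label fitted the pigment cell genes: all 18 measured genes of the melanocyte list were well above background on the 6 arrays. Pmel, the antigen source, had log2 levels of 8.57, 8.77 and 8.56 with IgG on days 3, 5 and 7, against 8.53, 8.93 and 9.00 in CTL tumours. Levels are log2 signals relative to the 75th percentile of the array.

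With IgG, 2 of 17031 genes changed relative to CTL tumours at an adjusted p under 0.05, both lower, which is 0.0117% of the genes tested (limma with Benjamini-Hochberg adjustment). The first is Calm4, a calmodulin-like gene known for its expression in epidermis, and the second is the transcript AK085112, which carries no gene name and was chosen after its values were seen. At an unadjusted p under 0.05 there were 3207 genes (18.8% of all genes), of which 1707 were higher and 1500 lower (8.81% of all genes). The fitted difference had a median of 0.02 over all genes and an SD of 0.404. For 13332 genes (78.3%) the whole 95% interval of the difference lay within a doubling either way, and the median interval reached 0.373 on each side of its estimate. The same-day differences of single genes correlated at 0.290 between days 3 and 5, 0.314 between days 3 and 7 and 0.285 between days 5 and 7. These pairs of days share no array, but the genes within an array share its scaling and are not independent replicates.

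**Figure D1:**
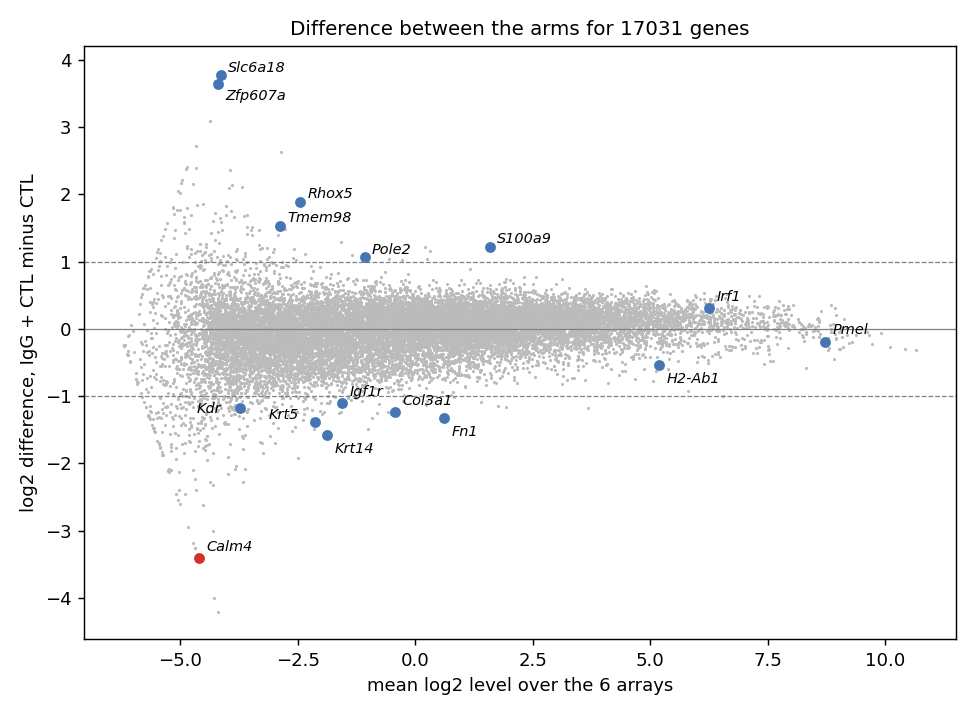
Log2 difference of IgG with CTL minus CTL tumours (y axis) against the mean log2 level over the 6 arrays (x axis), 1 point per gene. Calm4, in red, passed the adjusted threshold, and the genes labelled in blue did not. Dashed lines mark a doubling either way, and dim genes at the left spread most.

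Calm4 had log2 levels of -6.18, -6.41 and -6.33 with IgG on days 3, 5 and 7, against -3.26, -2.36 and -3.06 in CTL tumours. The arms did not overlap, and the CTL arrays were the ones that stood apart, since untreated tumours had -6.72, -6.70 and -6.56 and those given the anti-IFN-γ antibody -6.25, -6.60 and -6.93. The gene was well above background on all 3 CTL arrays and on no IgG array, so its fold is a bound: it was at least 2.21-fold lower with IgG. This bound sets the CTL mean over all 3 arrays against the mean of, for each IgG array, the higher of the probe's own signal and the lowest signal among probes well above background. The fitted log2 difference was -3.41 ± 0.241 (SE, n = 3 days, limma adjusted p = 0.00934). Leaving out day 3, day 5 or day 7 ended the call, with adjusted p of 0.214, 0.231 and 0.295. The probe lies at chr13:3837682-3837741 (build mm8, plus strand), and the other Calm4 probe was not above background on any of the 6 arrays. AK085112 had log2 levels of -5.27, -5.01 and -4.95 with IgG against -3.84, -3.91 and -3.71 in CTL tumours, and was well above background on no IgG array and on 2 CTL arrays. The same calculation gave it 1.16-fold lower with IgG (log2 difference -1.25 ± 0.0996, limma adjusted p = 0.0118). For this transcript that is not a strict bound, because not every CTL array was above background. Here the CTL values were nearer than the IgG values to those of untreated tumours, which had -3.45, -3.56 and -3.28. The promoter of Calm4 is shown because it is the only named gene that passed. It comes from RefSeq (GRCm38.p6, chr13:3837507-3837806, plus strand) and covers 250 bases before and 50 after the start. It holds no TATAAA on either strand, a sequence that 15.7% of genes hold in such a window.
Calm4: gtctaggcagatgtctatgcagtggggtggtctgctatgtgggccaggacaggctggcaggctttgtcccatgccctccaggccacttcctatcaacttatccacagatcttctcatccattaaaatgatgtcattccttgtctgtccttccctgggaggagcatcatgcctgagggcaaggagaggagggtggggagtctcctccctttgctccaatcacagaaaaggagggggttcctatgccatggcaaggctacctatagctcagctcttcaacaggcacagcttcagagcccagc

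Some other genes of stratified epithelium were lower with IgG on every day without passing the test. Among 8 measured keratinocyte genes 4 were lower on all 3 days and 1 higher, beside 24.5% of all genes that were lower on all 3 days. Differences in the list ran from -1.58 to 0.80. Krt14, a keratin of the basal layer, had log2 levels of -2.72, -3.06 and -2.19 with IgG, against -1.81, -0.90 and -0.54 in CTL tumours. Its partner keratin Krt5 had -2.60, -3.08 and -2.78 with IgG, against -1.78, -1.43 and -1.07 in CTL tumours. For both genes every IgG array lay below every CTL array, and the IgG values were near those of untreated tumours, at -2.83, -2.80 and -2.09 for Krt14 and -2.38, -2.86 and -2.42 for Krt5. The log2 differences were -1.58 ± 0.264 for Krt14 and -1.39 ± 0.207 for Krt5 (limma adjusted p = 0.186 for each). Krt17, Krt10 and the cornified envelope gene Sprr1a had differences of -0.58 ± 0.160, -0.93 ± 0.361 and -0.80 ± 0.139. The summed linear level of the keratinocyte list ran from 9.55 to 10.9 with IgG and from 7.56 to 9.89 in CTL tumours, opposite to its median of -0.51. The list member Sfn, a cell cycle inhibitor singled out after its values were seen, had a difference of 0.49 ± 0.281, higher on all 3 days. The part of skin cells in these differences was not tested.

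**Figure D2:**
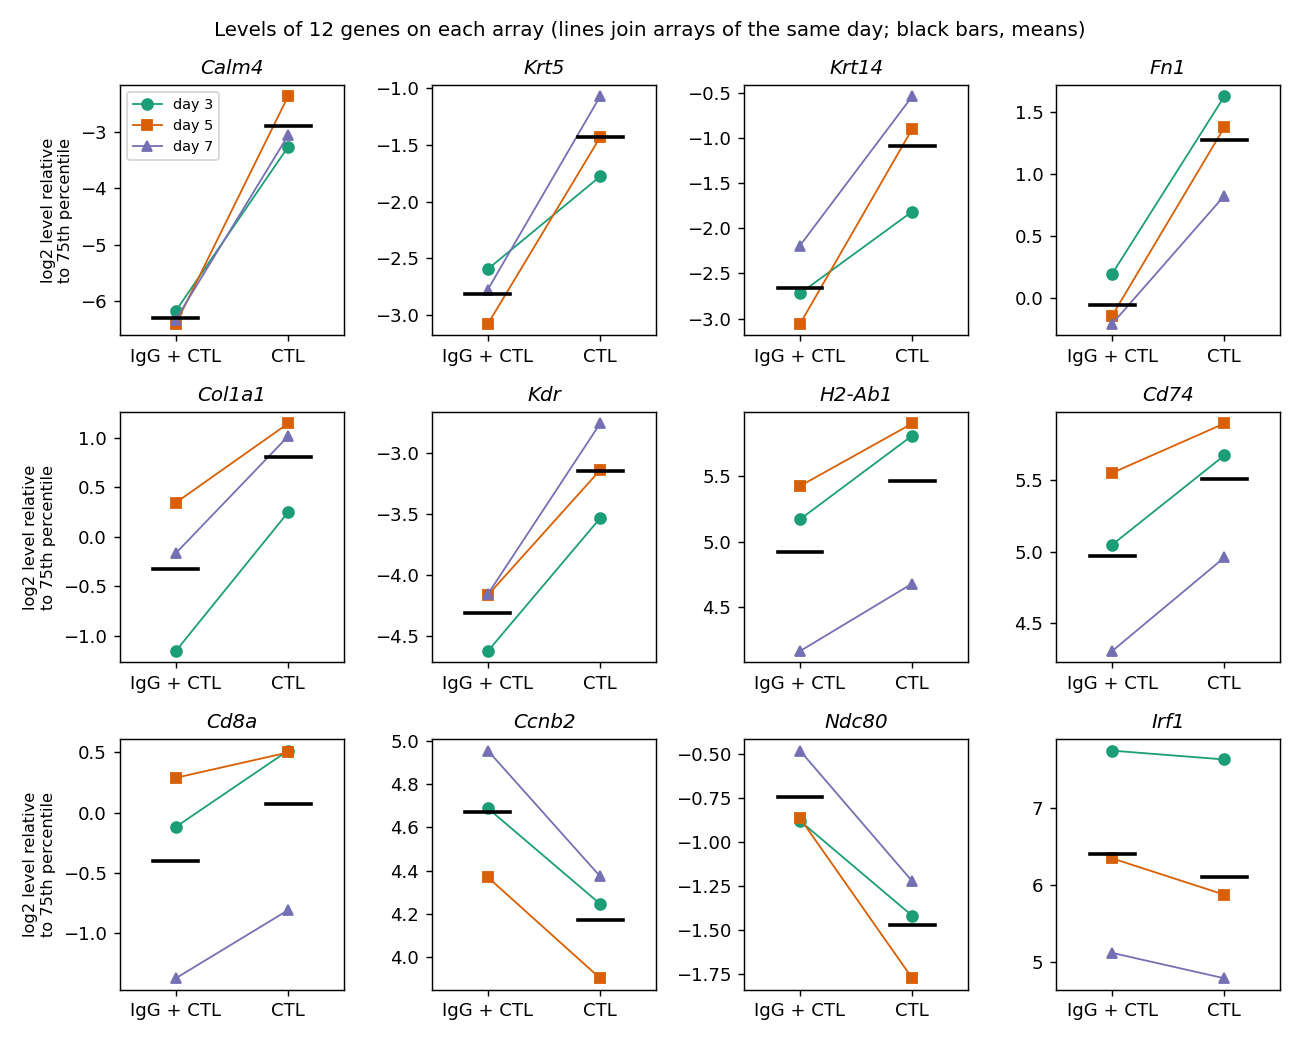
Log2 levels of 12 genes (y axis of each panel) on the IgG with CTL arrays, left, and the CTL arrays, right. Lines join arrays of the same day and black bars are means. Calm4, Krt5, Krt14, Fn1 and Kdr show no overlap between arms, while H2-Ab1, Cd74 and Cd8a overlap and are lowest on day 7 in both arms.

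Most measured genes of connective tissue and vessels were lower with IgG. Of 17 measured fibroblast and matrix genes 13 were lower on all 3 days (76.5%, against 24.5% of all genes) and 2 higher. At an unadjusted p under 0.05 there were 8, all lower, beside 8.81% of all genes that were lower at that p. None of the 17 genes passed the adjusted test. Their median log2 difference was -0.73, beside 0.02 over all genes. In bulk tumour RNA, fewer cells of a type and less RNA per cell cannot be told apart. Col3a1, a fibrillar collagen of soft tissue, had log2 levels of -1.94, -0.43 and -0.78 with IgG, against -0.27, 0.38 and 0.45 in CTL tumours. Col1a1, the main chain of collagen I, had -1.15, 0.35 and -0.17 with IgG, against 0.25, 1.15 and 1.02. Both were lower on each day; the arms did not overlap for Col3a1 and overlapped for Col1a1. The differences were -1.24 ± 0.327 for Col3a1 and -1.13 ± 0.318 for Col1a1 (limma adjusted p = 0.191 and 0.196). Pdgfrb, a receptor carried by pericytes and fibroblasts, differed by -1.13, -1.04 and -1.05 on the 3 days.

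Fn1, which encodes the matrix protein fibronectin, gave the lowest fitted difference of that list, -1.32 ± 0.220, but depended on the probe. The probe used here, at chr1:71537324-71537383 in mm8, had log2 levels of 0.20, -0.14 and -0.21 with IgG, against 1.62, 1.38 and 0.83 in CTL tumours. No IgG array reached a CTL array. The other Fn1 probes that passed the filter had mean differences of -0.29, -0.08 and -0.74, and 2 of them had positive differences on day 5, of 0.17 and 0.51. Col8a1, a short-chain collagen, differed by -1.57, -1.13 and -1.08 on days 3, 5 and 7, and Igfbp3, which binds insulin-like growth factors, by -1.25, -1.16 and -1.99. The receptor of those growth factors, Igf1r, had 4 probes that all pointed the same way, with mean differences of -1.09, -1.11, -1.21 and -0.84, the last pair from probes that were not well above background on at least 3 of the 6 arrays. Another Igfbp3 probe that passed the filter, well above background on none of the 6 arrays, had the opposite sign, at 0.34, 0.14 and 0.71. Gpc4, a cell surface proteoglycan, and Ptprd, a receptor phosphatase, differed by -0.84 ± 0.129 and -0.98 ± 0.143. Their intervals, from -1.13 to -0.54 and from -1.31 to -0.65, left out 0, but their adjusted p was 0.186.

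Of 17 measured endothelial genes 11 were lower on all 3 days (64.7%, against 24.5% of all genes) and 2 higher, with a median of -0.64. At an unadjusted p under 0.05, 9 were lower, beside 8.81% of all genes, and 1 was higher. None passed the adjusted test. Kdr, the main receptor for vascular endothelial growth factor, had log2 levels of -4.63, -4.17 and -4.16 with IgG, against -3.53, -3.14 and -2.76 in CTL tumours. It was well above background on no IgG array and on 3 CTL arrays, and was at least 1.87-fold lower with IgG (limma adjusted p = 0.191). Untreated tumours had the highest Kdr levels, -2.07, -2.71 and -1.77. Esam, a junction protein of endothelium, differed by -0.81 ± 0.178, and the guidance receptor Robo4 by -0.90 ± 0.239. Cdh5, the vascular cadherin, was well above background on no IgG array and on 2 CTL arrays. The calculation used for Kdr gave it 1.68-fold lower with IgG (limma adjusted p = 0.195). For Cdh5 this is not a strict bound, because not every CTL array was above background. Mmrn2, an extracellular protein of vessel walls that was in no list, had log2 levels of -1.60, -1.16 and -1.54 with IgG, against -0.31, -0.11 and -0.12 in CTL tumours, a difference past a doubling on every day. The higher members were Vwf, which makes the platelet-binding factor, at 0.35 ± 0.114 and the nitric oxide synthase Nos3 at 0.17 ± 0.106, both singled out after their values were seen. Among the 11 endothelial genes well above background on all 6 arrays the median was still -0.64, with 6 lower and 2 higher on all days. Of all genes under that filter 24.9% were lower on all days.

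Antigen presentation through class II molecules, which display peptides to helper T cells, measured lower with IgG on each of the 3 days for the 9 genes measured. All 9 measured genes were lower on all 3 days, beside 24.5% of all genes, with a median of -0.54. At an unadjusted p under 0.05 there were 6, beside 8.81% of all genes that were lower at that p. None of the 9 passed the adjusted test. With all 14 arrays in the fit, which adds CTL and untreated but no IgG tumours of day 1, the median was 0.04 and the H2-Ab1 difference 0.04. H2-Ab1, a class II β chain, had log2 levels of 5.17, 5.43 and 4.17 with IgG, against 5.81, 5.90 and 4.68 in CTL tumours. Cd74, the invariant chain that guards the groove, had 5.05, 5.55 and 4.30 with IgG, against 5.67, 5.90 and 4.96. The IgG value was the lower on each day, but the levels of the arms overlapped because both were lowest on day 7. The differences were -0.54 ± 0.0906 for H2-Ab1 (limma adjusted p = 0.186), -0.54 ± 0.144 for Cd74, -0.57 ± 0.154 for H2-Eb1 and -0.52 ± 0.161 for H2-Aa. The other 3 probes of H2-Ab1 had mean differences of -0.51, -0.40 and -0.31, and 1 of them had 0.01 on day 5. Ciita, the transactivator of these genes, had a difference of -0.34 ± 0.488, with an interval from -1.47 to 0.78. Its same-day differences were -0.34, -0.23 and -0.46, closer together than that error, which all 4 arms set.

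The promoters of H2-Aa and H2-Eb1 are shown because these genes differed by nearly the same amount and share a known class II element, the Y box, bound in general by NF-Y. Capitals mark CCAATCAG, read on either strand. In the windows of RefSeq (GRCm38.p6, 250 bases before to 50 after the start) 3 of the 6 class II genes with an entry hold it, against 4.7% of 27025 genes. It is not particular to class II: 5 of 18 G1/S genes and 5 of 24 G2/M genes, lists whose medians were higher with IgG, hold it too. The match begins 51 bases before the start in H2-Aa (chr17:34287774-34288073, minus strand) and 62 bases before it in H2-Eb1 (chr17:34305617-34305916, plus strand). A match describes the sequence and is not a measured binding site.
H2-Aa: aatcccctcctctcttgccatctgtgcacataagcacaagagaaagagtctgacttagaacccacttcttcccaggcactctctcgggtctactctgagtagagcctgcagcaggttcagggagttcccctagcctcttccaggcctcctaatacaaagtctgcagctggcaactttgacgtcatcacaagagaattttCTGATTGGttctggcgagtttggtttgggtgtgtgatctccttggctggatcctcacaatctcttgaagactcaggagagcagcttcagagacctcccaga
H2-Eb1: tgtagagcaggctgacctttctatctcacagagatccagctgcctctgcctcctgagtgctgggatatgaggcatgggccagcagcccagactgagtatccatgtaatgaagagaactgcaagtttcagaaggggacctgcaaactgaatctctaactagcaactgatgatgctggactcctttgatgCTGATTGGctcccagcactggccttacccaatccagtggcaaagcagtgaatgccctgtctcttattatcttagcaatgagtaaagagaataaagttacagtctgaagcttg

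Class I presentation, by contrast with class II, had a median difference of 0.05 over 15 genes, and the intervals of 11 of them lay within a doubling. Within it the class I heavy chains H2-K1 and H2-D1 had -0.36 ± 0.126 and -0.31 ± 0.117, lower on all 3 days. The other heavy chain genes of the list were negative too. H2-M3 had -0.23 ± 0.343, lower on all 3 days. H2-Q7 and H2-T23 had -0.25 ± 0.147 and -0.24 ± 0.275, with mixed signs over the days. The remaining members had either sign, from -0.24 for Tapbp to 0.24 for Psmb10. The difference between the class I and class II medians was not tested.

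**Figure D3:**
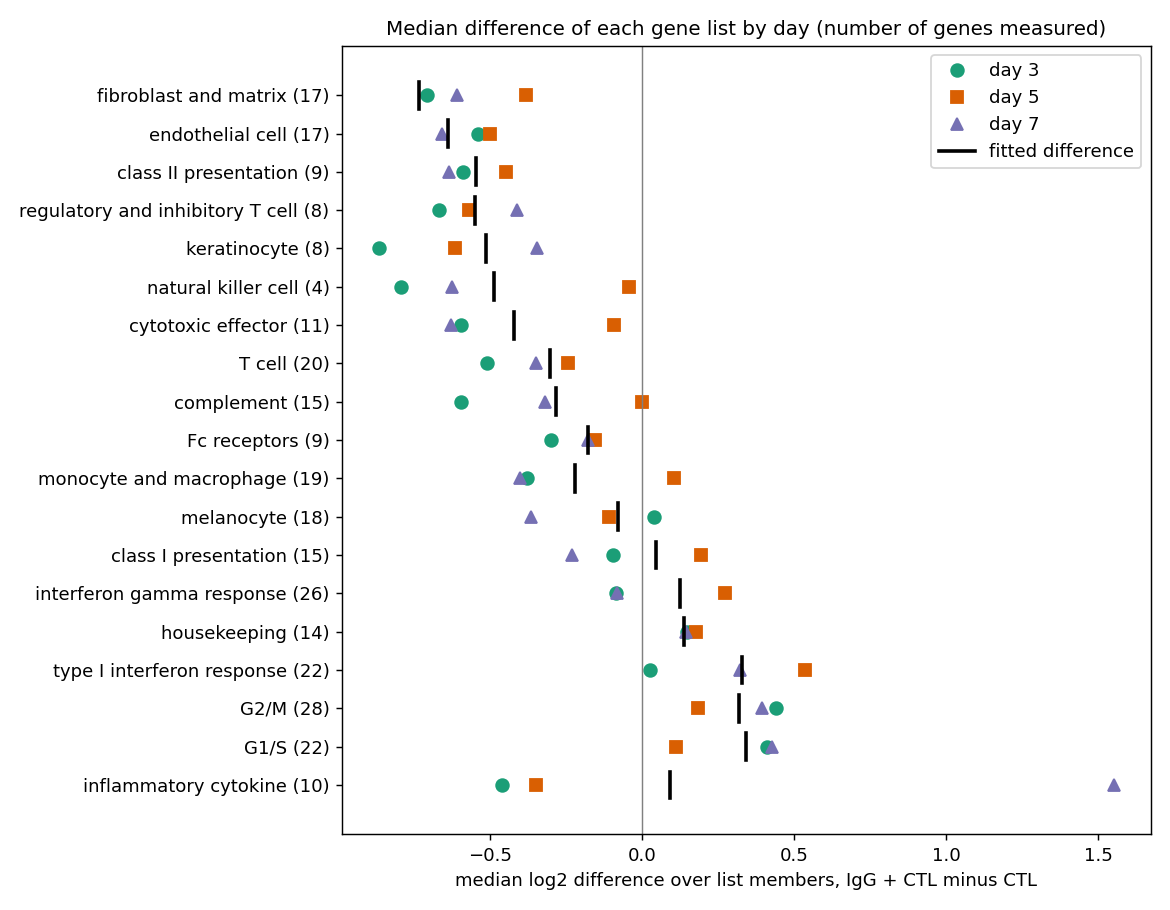
Median log2 difference of IgG with CTL minus CTL tumours (x axis) over the measured members of each gene list (y axis, number measured in brackets), by day and for the fitted difference (black bar). Stromal, vascular and class II lists lie left of 0 on all 3 days, both cell cycle lists lie right of it, and the inflammatory cytokine list lies at 1.55 on day 7 only.

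T cell genes were lower with IgG by a fraction of a doubling, and none passed. Of 20 measured T cell genes 13 were lower on all 3 days (65%, against 24.5% of all genes) and none higher. The list median was -0.30, and no member had an unadjusted p under 0.05. With all 14 arrays in the fit the median was -0.01. Cd8a, the coreceptor of the transferred CTLs, had log2 levels of -0.12, 0.29 and -1.37 with IgG, against 0.51, 0.50 and -0.81 in CTL tumours. Both arms stood far above untreated tumours, which had -6.51, -5.49 and -6.47. The difference of this probe was -0.47 ± 0.282, but the other Cd8a probes had mean differences of 0.00 and -0.11, and with all 14 arrays in the fit Cd8a had 0.18. Cd3e, a signalling chain of the T cell receptor, differed by -0.31 ± 0.139. Thy1, which encodes the CD90 protein whose CD90.1 form marked the transferred cells, differed by -0.48 ± 0.372. Whether the probe tells its alleles apart was not tested. All 8 measured genes of the regulatory and inhibitory receptor list were lower on all 3 days, beside 24.5% of all genes. The median was -0.55. In that list Icos, a costimulatory receptor, had -0.85 ± 0.467, and Tnfrsf4, also known as OX40, had -0.45 ± 0.147.

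Effector genes varied more between days. Of 11 measured cytotoxic genes 5 were lower on all days (45.5%, against 24.5% of all genes) and none higher. List medians were -0.59, -0.09 and -0.63 on days 3, 5 and 7. The fitted median was -0.42, and 0.02 with all 14 arrays. Prf1, the pore-forming protein, had log2 levels of -1.81, -1.13 and -2.26 with IgG, against -1.03, -0.98 and -1.33 in CTL tumours. Gzmb, a granule protease, had 1.89, 1.59 and -1.06 with IgG, against 2.76, 1.08 and -0.43, and so was higher with IgG on day 5 only. Ifng had 2.05, 0.36 and -1.62 with IgG, against 2.74, 0.45 and -1.55, a difference of -0.28 ± 0.560 with an interval from -1.57 to 1.01. All 4 measured natural killer genes had negative differences, with a median of -0.49. On all days 3 were lower (75%, against 24.5% of all genes) and none higher. Only Klrk1 and Klrd1 were well above background on every IgG and CTL array, while Klra8 and Klrb1c were so on 1 IgG array each. Which cells carried these transcripts was not tested.

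The IFN-γ response itself had no uniform direction. Of 26 measured genes 8 were higher on all 3 days (30.8%, near the 30.5% of all genes) and 4 lower (15.4%, against 24.5%). Their median was 0.12, and none had an unadjusted p under 0.05. Irf1, a transcription factor induced by IFN-γ, had log2 levels of 7.75, 6.35 and 5.11 with IgG, against 7.64, 5.87 and 4.78 in CTL tumours. Untreated tumours had 2.09, 2.55 and 2.06. The T cell attractant Cxcl9 differed by -0.44 ± 0.722 and the guanylate-binding protein Gbp2 by 0.37 ± 0.735. The interval of only 1 of the 26 genes lay within a doubling, so equal levels were not shown. Of 22 type I interferon response genes 10 were higher on all 3 days, 45.5% against 30.5% of all genes, and none lower, with a median of 0.33. Ifih1, a sensor of viral RNA, had 0.52 ± 0.364 and Oas3 0.41 ± 0.258.

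No gene for receptors or effectors of antibody passed the test, in either direction. Of 9 measured Fc receptor genes 5 were lower on all 3 days (55.6%, against 24.5% of all genes) and none higher. Their median was -0.18 (0.03 with all 14 arrays), and the intervals of 7 lay within a doubling. Fcgr3, an activating receptor, had log2 levels of 1.58, 2.37 and 1.65 with IgG, against 2.12, 2.52 and 2.01 in CTL tumours. The inhibitory receptor Fcgr2b had 1.54, 1.75 and 1.03 with IgG, against 1.84, 1.47 and 1.02, a difference of 0.00 ± 0.133 with an interval from -0.31 to 0.30. The shared signalling chain Fcer1g differed by -0.39 ± 0.247, the high-affinity receptor Fcgr1 by -0.29 ± 0.225, Fcgr4 by -0.35 ± 0.302 and Fcgrt, the receptor that extends the life of IgG, by -0.18 ± 0.214. Of 12 genes of Fc receptor signalling 6 were lower on all days (50%, against 24.5% of all genes) and 1 higher (median -0.24). The kinase Lyn had -0.39 ± 0.166.

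Complement genes had a median of -0.28 over 15 measured, with 6 lower on all 3 days (40%, against 24.5% of all genes) and 1 higher. C1qa, a chain of the component that binds antibody, had 1.15, 2.09 and 1.70 with IgG, against 1.77, 2.36 and 2.01 in CTL tumours. C1qb and C1qc differed by -0.40 ± 0.183 and -0.49 ± 0.235. C3, the central component, differed by -0.65, 0.27 and -0.22 on the 3 days. Monocyte and macrophage genes had a median of -0.22 over 19 measured, and medians of -0.38, 0.11 and -0.40 on the 3 days. Of the 19 genes 5 were lower on all 3 days (26.3%, near the 24.5% of all genes) and 2 higher. Mpeg1, a macrophage pore protein, had -0.76 ± 0.279, while Csf1r, the receptor for macrophage colony-stimulating factor, had -0.37 ± 0.212. Chil3, a chitinase-like protein of macrophages, had 0.55 ± 0.213, higher on all 3 days. B cell and plasma cell lists had medians of -0.24 and -0.16 over 5 and 9 genes.

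Cell cycle genes were higher with IgG, by less than a doubling for most, and none passed the adjusted test. Of 28 measured G2/M genes 22 were higher with IgG on all 3 days (78.6%, against 30.5% of all genes) and none lower, with a median of 0.32. At an unadjusted p under 0.05 there were 11, all higher, beside 1707 of all 17031 genes that were higher at that p. Ndc80, a kinetochore protein, had log2 levels of -0.88, -0.87 and -0.48 with IgG, against -1.42, -1.78 and -1.22 in CTL tumours, with no overlap (0.73 ± 0.206, limma adjusted p = 0.196). Ccnb2, a mitotic cyclin, had 4.69, 4.37 and 4.95 with IgG, against 4.25, 3.90 and 4.37, a difference of 0.50 ± 0.179. Mki67, the proliferation marker, differed by 0.25 ± 0.140. The exception in size was the kinase gene Ttk, with 0.11, -3.85 and -0.13, where the CTL array of day 5 alone held a log2 level of 0.04. Of 22 G1/S genes 14 were higher on all days (63.6%, against 30.5% of all genes) and none lower, with a median of 0.34. At an unadjusted p under 0.05 there were 5 of the 22, all higher, beside the same 1707 of all 17031 genes. Mcm6, a subunit of the replicative helicase, had 0.47 ± 0.125 and Rrm1, a chain of ribonucleotide reductase, 0.44 ± 0.140. Pole2, a subunit of DNA polymerase epsilon, was past a doubling on every day, with log2 levels of -0.78, -0.82 and -0.02 with IgG against -1.79, -1.82 and -1.20 in CTL tumours.

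Most G2/M genes, but few G1/S genes, held a promoter sequence that the comparison did not use. TTTGAA, the core of the cell cycle homology region known from mitotic genes, was found on either strand in 18 of 24 G2/M genes with a RefSeq window (75%), in 2 of 18 G1/S genes (11.1%) and in 20.2% of all genes. Ndc80 and Ccnb2 are shown as G2/M members at an unadjusted p under 0.05, with the matches in capitals (GRCm38.p6, chr17:71526808-71527107 and chr9:70421505-70421804, both minus strand). Ttk, whose direction differed, also holds the sequence.
Ndc80: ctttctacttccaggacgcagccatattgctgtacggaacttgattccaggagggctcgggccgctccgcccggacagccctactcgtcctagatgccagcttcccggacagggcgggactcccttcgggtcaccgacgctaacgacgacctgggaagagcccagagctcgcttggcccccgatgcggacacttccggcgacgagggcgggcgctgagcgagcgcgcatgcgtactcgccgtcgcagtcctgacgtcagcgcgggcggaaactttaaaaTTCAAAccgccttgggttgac
Ccnb2: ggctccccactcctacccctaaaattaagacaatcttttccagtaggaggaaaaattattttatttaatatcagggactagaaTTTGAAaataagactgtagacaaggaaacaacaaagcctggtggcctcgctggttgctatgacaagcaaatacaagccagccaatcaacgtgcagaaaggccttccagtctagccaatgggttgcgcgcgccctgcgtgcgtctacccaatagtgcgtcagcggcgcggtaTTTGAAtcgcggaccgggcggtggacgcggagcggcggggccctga

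Of 14 measured housekeeping genes 8 were higher with IgG on all 3 days, beside 30.5% of all genes, 1 was lower and 5 had mixed signs. Their median was 0.14, none passed the adjusted test, and all 14 intervals lay within a doubling. At an unadjusted p under 0.05 there were 6 of the 14, all higher, beside 1707 of all 17031 genes that were higher at that p. Ppia, a prolyl isomerase, had 0.46 ± 0.130 and Gapdh, a glycolytic enzyme, 0.31 ± 0.0889. Melanocyte genes had a median of -0.08, with 17 of 18 intervals within a doubling. Sox10, a transcription factor of the lineage, had 0.20 ± 0.0942 and the receptor Kit -0.42 ± 0.177. Hypoxia and glycolysis genes had a median of 0.07 over 19 genes. The proportion of tumour to host cells in the pools is not given, and its part in the list differences was not tested.

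Among single genes, 50 were past a doubling in the same direction on all 3 days, 14 higher and 36 lower (0.294% of genes). With quantile normalization the split was 27 higher and 30 lower. Of those well above background on all 3 arrays of their brighter arm, 7 were higher and 11 lower. Rhox5, a homeobox gene of the X chromosome, had log2 levels of -0.16, -2.55 and -1.82 with IgG, against -3.03, -4.02 and -3.14 in CTL tumours. The arms did not overlap (1.89 ± 0.456, limma adjusted p = 0.191), and tumours given the anti-IFN-γ antibody had 0.55, -0.71 and -2.01. Tmem98, a membrane protein gene, had -2.12, -2.76 and -1.43 with IgG, against -3.96, -4.03 and -2.92. Zfp607a, a zinc finger gene, was well above background on 3 IgG arrays and no CTL array and was at least 2.67-fold higher with IgG (limma adjusted p = 0.186). The transporter gene Slc6a18 was at least 2.90-fold higher on the same basis (limma adjusted p = 0.191). Other probes of both these genes were not above background on any of the 6 arrays. For both genes the 3 IgG arrays by themselves met the filter, so they could enter through the arm where they were high. Stfa3, a stefin, was lower, with -4.53, -4.08 and -3.70 with IgG against -2.32, -2.70 and -2.22 in CTL tumours.

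Some genes differed on 1 day by far more than on the others, and each such difference rests on 1 array a side with no test. On day 7 several genes of neutrophils and acute inflammation were far higher with IgG. S100a9, a chain of calprotectin, had log2 levels of 0.08, 0.94 and 5.56 with IgG on days 3, 5 and 7, against 0.08, 2.57 and 0.28 in CTL tumours. Its partner S100a8 had -3.90, -2.25 and 1.43 with IgG, against -3.39, -1.24 and -2.83. On day 5 their differences were -1.63 and -1.02, so the order of the arms differed between days 5 and 7. Il1b, the inflammatory cytokine, had 0.26, 0.37 and 2.05 with IgG, against 0.84, 0.22 and -1.84. Hdc, which makes histamine, had 0.39, -1.39 and 0.91 with IgG, against 0.40, -0.66 and -2.96. The day 7 differences were 5.28 for S100a9, 4.26 for S100a8, 3.88 for Il1b and 3.87 for Hdc, and the chemokines Cxcl3 and Ccl3 and the receptor Trem1 had 3.24, 2.09 and 2.73. Over the 10 measured inflammatory cytokine genes the median was -0.46 and -0.35 on days 3 and 5 and 1.55 on day 7. Only 5 of 15 neutrophil list genes were measured, and Mmp8, a neutrophil collagenase, had a difference of -1.02 on day 7. Summed over the neutrophil list, the linear level ran from 1.33 to 50.3 with IgG, from 1.35 to 6.97 in CTL tumours and from 0.29 to 1.02 in untreated ones, and the highest value with IgG was almost wholly S100a9.

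**Figure D4:**
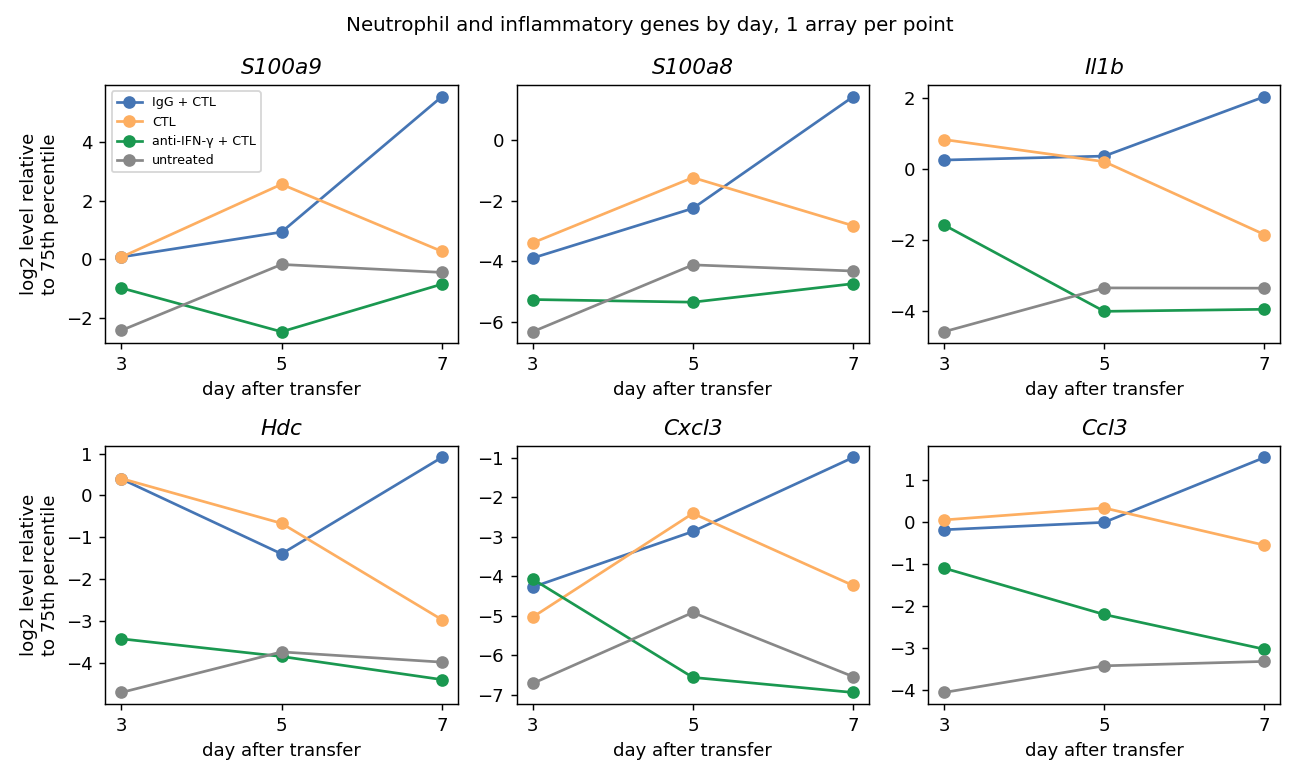
Log2 levels of 6 neutrophil and inflammatory genes (y axis) on days 3, 5 and 7 (x axis) in the 4 arms, 1 array per point. The IgG with CTL array of day 7 has the highest level in each panel.

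A test for a difference that changed steadily over days 3 to 7 called no gene: 381 genes (2.24%) had an unadjusted p under 0.05 and the lowest adjusted p was 0.267 (limma, arm by day slope). Acd, a telomere protein, differed by -6.53 on day 3, where the CTL array alone was high, and by 0.39 and 0.36 on days 5 and 7. Samd4, an RNA-binding protein, had a log2 level of 0.40 with IgG on day 3 and -2.78 in CTL tumours, but its other probe differed by -0.56 on that day. On day 5 the lysosomal enzyme gene Galc had -3.76 with IgG and -0.10 in CTL tumours, whereas the other Galc probes that passed the filter differed by 0.08 and 0.35. The skeletal muscle genes Acta1 and Myl1 differed by 2.24 and 2.08 on day 5, while Tnnt3, a muscle troponin named after its values were seen, differed by -2.09. The muscle list had a median of 0.74 on that day, and its summed level ran from 16.6 to 25.5 with IgG, from 16.7 to 22.1 in CTL tumours and from 19.4 to 22.3 in untreated tumours. How far muscle in a pool contributed was not tested.

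The number of genes past a doubling on a single day moved with dim signals. On days 3, 5 and 7 there were 229, 286 and 358 higher and 456, 1033 and 398 lower. Among genes well above background on both arrays of the day, an alternative chosen after seeing the data, there were 53, 52 and 145 higher and 118, 543 and 167 lower. Genes above background on neither array had a median difference of -0.54 on day 5, beside 0.01 on day 3 and 0.05 on day 7.

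Set against untreated tumours, both arms carried the T cell response. With IgG 3174 genes changed (18.6% of genes, 1273 higher and 1901 lower), and in CTL tumours 5363 (31.5%, 1722 higher and 3641 lower). The arms share the untreated arrays and CTL arrays enter the main comparison, so these numbers are given side by side and not compared by test. The IFN-γ response list rose in 23 of 26 genes with IgG and in 23 without, with medians of 5.45 and 5.47. Class II genes had medians of 4.52 with IgG and 5.08 in CTL tumours, and 8 of 9 rose in each. Cytotoxic genes had 4.32 and 4.95, with 10 of 11 up in each. Endothelial genes fell in 10 of 17 with IgG and in 7 without, with medians of -1.06 and -0.44. For fibroblast and matrix genes the medians were -0.45 with IgG and 0.31 in CTL tumours, with 1 gene higher and 3 lower with IgG, and 4 higher and 2 lower in CTL tumours. G2/M genes fell in 6 of 28 with IgG and in 27 of 28 in CTL tumours, with medians of -0.46 and -0.85, and G1/S genes in 1 and 15 of 22, with medians of -0.36 and -0.70. Of the 1722 genes that rose with CTLs alone, 1070 (62.1%) had an IgG minus CTL interval within a doubling.

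**Figure D5:**
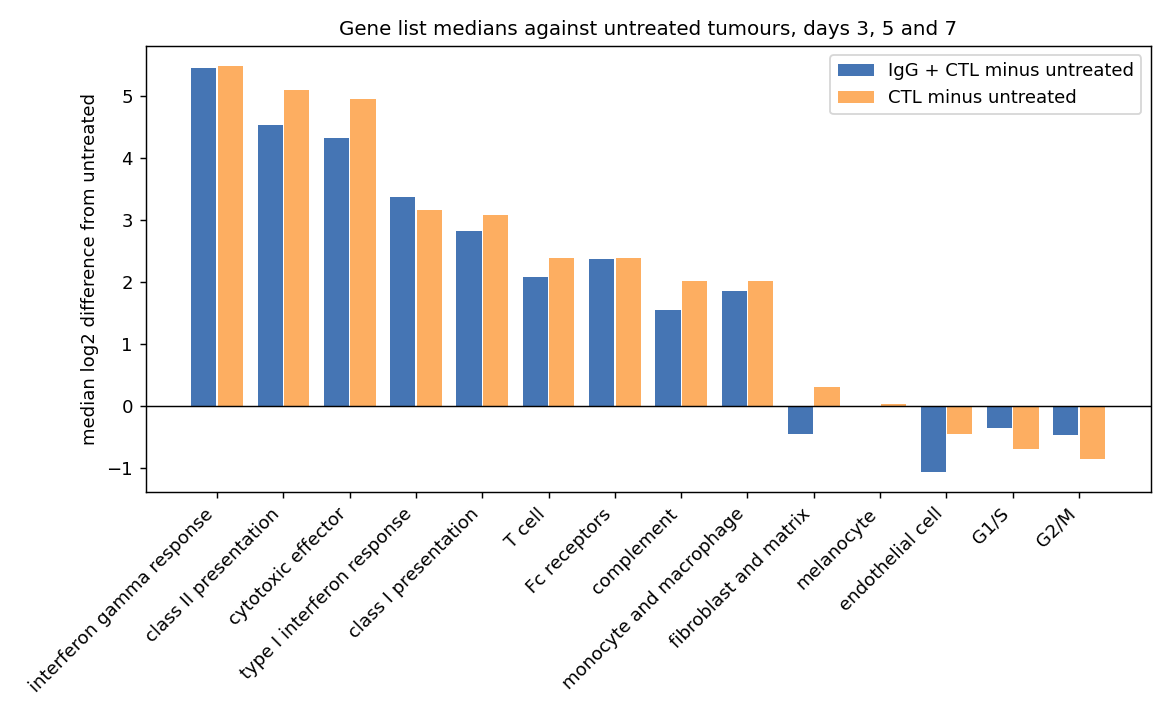
Median log2 difference from untreated tumours (y axis) for 14 gene lists (x axis), with IgG with CTL at the left of each pair and CTL at the right. Both arms share the 3 untreated arrays. The IFN-γ response medians are 5.45 and 5.47, while fibroblast and matrix genes lie at -0.45 and 0.31.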

How the data were processed

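RNA of pooled tumours was hybridised to 1-colour Agilent mouse arrays. The submitters' processing notes name Agilent Feature Extraction 9.5. Its deposited output gives each spot's linear intensity, and the column used here had the background removed, per the file headers. A log2 table deposited by the authors held the same signals shifted by a constant in each array.

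From the scanner files, the log2 processed signal minus the array's 75th percentile was used. Outlier spots were left out and spots of a probe averaged. Probes well above background on at least 3 of 14 arrays were kept, with 1 probe per gene, that of highest mean, which gave 17031 genes. Limma 3.58.1 in R 4.3.3 was fitted to the 12 arrays of days 3, 5 and 7 with arm and day as terms (two-sided, Benjamini-Hochberg threshold 0.05). The script was tested on simulated data. Day equals slide, and per the labels each day has 1 array per arm. Deviations of same-day IgG and CTL arrays from their arm means correlated at 0.510, 0.198 and 0.444, so day was kept as the block. The p-values rest on the spread of pools after arm and day in all 4 arms, so untreated and anti-IFN-γ arrays also set it. They do not measure the spread between mice.

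The members and the 37 gene lists were chosen with earlier results of these data known. Named genes were those with the lowest p-values and 1 direction, those past a doubling on all 3 days, the 5 highest and 5 lowest of each day, the 4 members of lowest p of each list, and 32 set genes, of which Nos2 and Ighm were not measured. Lists are given by counts and medians, with no set test. Probe coordinates are in mm8, from the files. No exon annotation was used. Alternatives changed the normalization, the filter, the probe rule, the block, the arrays in the fit, the variance prior and the days.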

Additional observations from a re-analysis of the deposited data

How the results depend on the processing

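The count of genes that differed between IgG with CTL and CTL tumours was 2. It was 0 among genes well above background on all 6 arrays (2961 at an unadjusted p under 0.05), 0 with the 6 arrays alone and the replicate block (4278 unadjusted) and 0 with an intensity trend and robust prior (3482 unadjusted). It was 1 after normexp background correction, 4 with no replicate block and 4 with all 14 arrays, and ran from 0 to 2 when a day was left out. Which of these genes were shared was not counted. Genes past a doubling on all days numbered 0 after normexp, 90 with no filter, 6 among genes well above background on all 6 arrays, and 153 to 196 over pairs of days. Genes that differed between CTL and untreated tumours numbered 3296 with no filter, 1837 with all 14 arrays and 660 to 5111 with a day left out, and for IgG with CTL against untreated tumours 2005, 1706 and 522 to 2701. The count of genes with intervals within a doubling stayed within 1.5 times of 13332 in all 14 alternatives, but the number of tested genes differed. As a share of tested genes it ran from 65.5% with no filter to 96.1% after normexp, beside 78.3%. The slope count was 0 in those run.

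Calm4 kept its sign in 13 alternatives and its call in 8, with differences from -3.66 to -0.96. The fibroblast, endothelial, keratinocyte, G1/S and G2/M medians kept their sign in all 13 alternatives. The class II median ran from -0.65 to 0.04, positive only with all 14 arrays, where day 1 adds CTL and untreated but no IgG tumours. The IFN-γ median was -0.03 without day 5 and 0.56 with all 14 arrays. With all 14 arrays the T cell, cytotoxic and Fc receptor medians were -0.01, 0.02 and 0.03, and the class I median, which kept its sign in 9 of 13, ran from -0.16 to 0.30. Zfp607a passed with quantile normalization (limma adjusted p = 0.039). Dim probes limit the folds of Calm4 and Kdr to bounds.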

Other observations

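Genes that respond to glucocorticoids included 3 of 11 measured at an unadjusted p under 0.05, all lower with IgG, beside 8.81% of all genes that were lower at that p. The list median was -0.11, with 4 members lower on all 3 days (36.4%, against 24.5% of all genes) and 3 higher (27.3%, against 30.5%). Fkbp5, a chaperone of the steroid receptor, had differences of -0.57, -1.29 and -0.58 on days 3, 5 and 7, Sgk1 had -0.60, -0.55 and -0.78 and Tsc22d3 had -0.47, -0.23 and -0.70. None passed the adjusted test. In the chemokine list, with a median of -0.19 over 18 genes, Cxcl12, a stromal attractant of leukocytes, differed by -1.15 ± 0.299, and Ccl27a, a skin chemokine, by 0.41 ± 0.104. The heat shock gene Hsp90aa1 had 0.49 ± 0.140, in a list with a median of 0.05.

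Adipocyte genes had a median of -0.41, with 5 of 9 lower on all days (55.6%, against 24.5% of all genes). Mast cell, basophil and eosinophil genes had -0.28 over 4. Cma1, a mast cell protease, was well above background on no IgG array and on 1 CTL array, so no fold is given. Its log2 levels were -5.52, -4.47 and -4.19 with IgG, against -3.78, -3.29 and -4.13 in CTL tumours. The remaining medians were -0.07 for dendritic cells, -0.05 for neutrophils, 0.15 for clock genes, -0.11 for immediate early genes and -0.06 for nerve and glia. The 3 genes of the sex chromosomes had -0.44. Myeloid suppressor genes had a fitted median of 0.21, but their medians were -0.09, -0.14 and -0.05 on days 3, 5 and 7. Erythroid genes had 0.14, with -0.22, -0.15 and 0.93 on those days. The carbonic anhydrase gene Car3 differed by -1.94, -0.13 and -2.39 on days 3, 5 and 7.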
